A study of Arabidopsis thaliana with 27 samples.

Results

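RDUF1, RDUF2, AIRP1, AIRP2, SDIR1, RGLG1, RGLG2, DRIP1 and DRIP2 are 9 Arabidopsis genes for RING-type ubiquitin ligases that act in drought or abscisic acid (ABA) responses, and they were chosen by locus from a table of 34218 genes. All 9 passed the filter on low values that left 18785 genes for testing, and all are described below in every leaf sample. Their transcripts were measured by RNA sequencing of leaves in 27 samples, which form 9 groups (each genotype under each treatment) of 3 samples. The genotypes were GC::AtTOR, in which a tobacco guard cell promoter drives full-length AtTOR, 35S::AtTOR, in which the CaMV 35S promoter drives it, and wildtype (WT) Col-0, the ecotype that was transformed. Several homozygous lines were combined for each construct, and the sources used here do not state which line gave a sample. The treatments were well-watered leaves, leaves after 11 days without water (27 to 38 days after germination) and leaves 4 days after watering was resumed. The hour of harvest and the age of the well-watered plants are not given in the sources used here. The study asked how AtTOR lines respond to water deficit. From these same samples, its text names RDUF1 and RDUF2 as upregulated in well-watered GC::AtTOR compared with WT. AIRP1 stands in a heatmap of differentially expressed genes. The values of these 3 genes here are therefore not independent evidence.

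Ubiquitin is passed from an activating enzyme (E1) to a conjugating enzyme (E2), and a ligase (E3) then places it on a chosen protein, which the proteasome often degrades. A RING finger is the zinc-binding domain with which a ligase of this kind holds the loaded E2. In Arabidopsis, RDUF1, RDUF2, AIRP1, AIRP2 and SDIR1 are known as positive regulators of ABA or drought responses, while RGLG2, DRIP1 and DRIP2 are known as negative regulators of drought responses. DRIP1 and DRIP2 target the dehydration transcription factor DREB2A, RGLG2 targets the transcription factor ERF53, and RGLG1 targets the ABA co-receptor phosphatase PP2CA.

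RDUF1 (AT3G46620) lies on chromosome 3 at 17178601 to 17180559 and RDUF2 (AT5G59550) on chromosome 5 at 23998164 to 24000166, both on the minus strand of TAIR10.1 and both with 1 exon. AIRP1 (AT4G23450) lies on chromosome 4 at 12240803 to 12242736, minus strand, and AIRP2 (AT5G01520) on chromosome 5 at 206432 to 208611, plus strand. Their coding sequences are 1188 bases in RDUF1, 1224 in RDUF2, 462 in AIRP1 and 729 in AIRP2, each for the gene's lowest-numbered RefSeq transcript. RDUF1 and RDUF2 are close paralogs, with 77.6% identity over 1130 aligned coding bases. The longest run of bases that their transcripts share without a mismatch is 38, printed here because it bears on whether reads could be split between the pair. It starts at coding base 463 of RDUF1 and 415 of RDUF2:
RDUF1 and RDUF2 shared run: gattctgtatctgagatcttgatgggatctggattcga
The longest shared runs were 29 bases for RGLG1 with RGLG2 and 26 bases for DRIP1 with DRIP2. The reads were paired and, before trimming, longer than any of these runs. On the opposite strand, RDUF1 overlaps the MIR5651 locus by 8 bases, and that locus was at 0 in all 27 samples. AIRP1 overlaps AT4G23440 by 24 bases, and SDIR1 overlaps AT3G55520 by 220 bases and the antisense gene AT3G08525, which did not pass 3.29 normalized counts in any sample. Whether the counting used strand is not given in the sources used here, so a part of the SDIR1 counts could come from AT3G55520.

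The bases just before the annotated gene start are shown for RDUF1, RDUF2 and AIRP2, the members that changed most, with motif letters in capitals on either strand. For RDUF1 this is the 118 bases up to the neighboring gene, chr3:17180560-17180677. For RDUF2 it is 250 bases, chr5:24000167-24000416, before the outermost of its 2 annotated transcripts, and for AIRP2 it is 250 bases, chr5:206182-206431. All are read from RefSeq's TAIR10.1 sequence, 5′ to 3′ along the gene:
RDUF1: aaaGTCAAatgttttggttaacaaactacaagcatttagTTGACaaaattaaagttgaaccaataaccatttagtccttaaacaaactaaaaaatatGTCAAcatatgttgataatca
RDUF2: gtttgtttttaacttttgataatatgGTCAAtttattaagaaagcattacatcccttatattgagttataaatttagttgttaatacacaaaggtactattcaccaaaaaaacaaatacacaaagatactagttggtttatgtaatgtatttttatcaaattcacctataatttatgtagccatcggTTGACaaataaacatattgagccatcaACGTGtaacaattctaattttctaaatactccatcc
AIRP2: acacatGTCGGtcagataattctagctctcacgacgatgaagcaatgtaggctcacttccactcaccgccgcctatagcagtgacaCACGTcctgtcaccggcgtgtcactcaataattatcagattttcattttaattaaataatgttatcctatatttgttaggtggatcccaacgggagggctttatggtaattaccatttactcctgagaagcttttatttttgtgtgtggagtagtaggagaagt
The letters searched were the W-box core TTGAC, the ABRE core ACGTG, the DRE core CCGAC, the rapid stress response element CGCGTT and the evening element AAATATCT. The window of 250 bases before RDUF1 held 4 W-box cores, 3 of them in the printed stretch and 1 within the neighboring gene, and that before RDUF2 held 2 and 1 ABRE core. At least 4 W-box cores stood in 0.721% of the 27443 promoters of the same length, at least 2 in 14.1% and at least 1 in 44.9%. The AIRP2 window held 1 ABRE core, a motif in 22.9% of promoters, and 1 DRE core, in 3285 of the 27443, and no W-box core. W-box cores stood before 5 of the 9 genes, with 3 each before RGLG2 and DRIP2, which changed little, and 1 before AIRP1. Neither the rapid stress response element nor the evening element stood before any of the 9 genes, with shares over all promoters of 2.59% and 4.79%. These matches describe letters only.

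The values are normalized counts, the reads of a gene divided by 1 size factor for each sample. Sequencing depth was 10385851 to 16707106 recovered reads in 26 samples and 2739872 in 35S::AtTOR re-watered replicate 1, where 1 read equals 4.13 normalized counts. As a check on the labels, TOR averaged 12245 ± 2760 in 35S::AtTOR, 1187 ± 58.7 in GC::AtTOR and 1194 ± 61.7 in WT well-watered leaves (SD, n = 3 each), so the whole-leaf TOR level showed the 35S construct and not the guard cell construct. The leaf mesophyll marker RBCS1A was high in every sample (28692 to 196726), but LHCB1.1, another of the 4, ranged from 34.6 to 51372. CA1 and LHCA1 had lowest samples of 2204 and 2222. The root marker EXPA7 was at 0 in all 27, and the 3 root markers summed to at most 1.2. The guard cell marker MYB60 ranged from 7.87 to 135. The 2 seed markers summed to 4.4, 101.6 and 69.2 in well-watered WT replicates 1, 2 and 3, and to at most 2.0 in any other group. In whole leaves, fewer cells of a type and less RNA per cell cannot be told apart. Nothing in the labels says that replicates came from separate cultures or batches of plants, so p-values measure the spread between these samples. Per kilobase of coding sequence, the well-watered WT level was highest in AIRP2 (678), RDUF2 (545) and RDUF1 (490) and lowest in DRIP1 (90.5), RGLG1 (98.6) and DRIP2 (104).

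**Figure D1:**
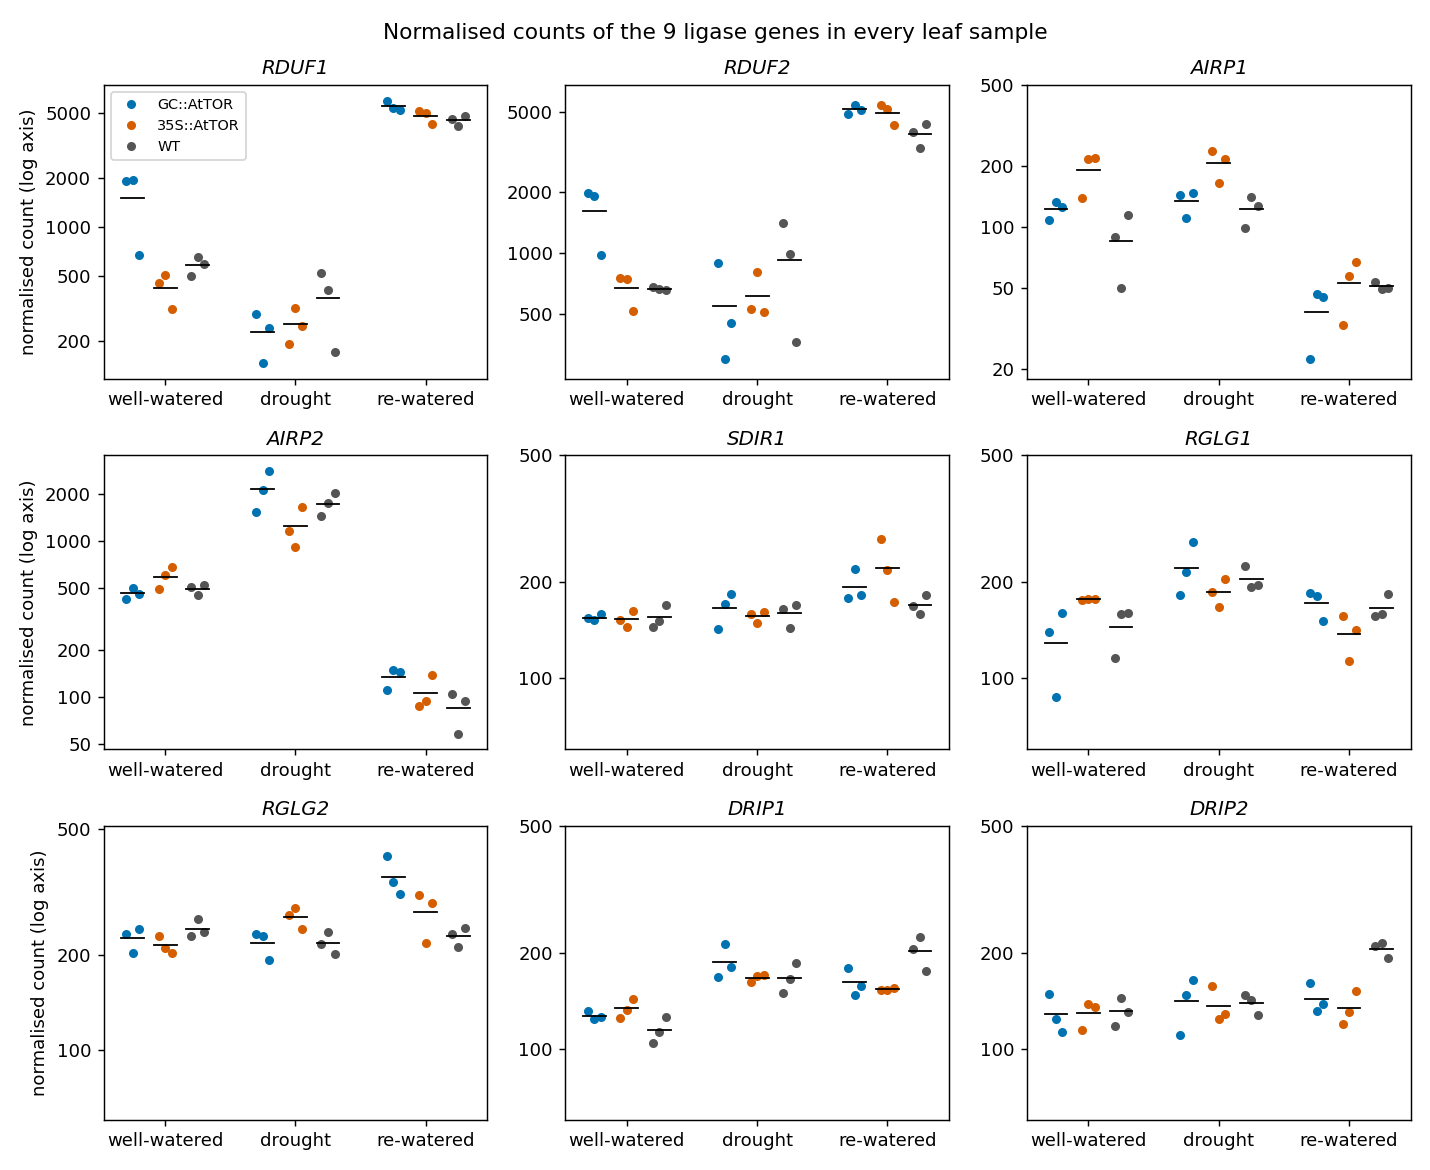
Normalized counts (log axis, own range for each gene) of the 9 genes in each of the 27 samples, by treatment along the x axis and by genotype in color; points are samples and black lines are group means. RDUF1 and RDUF2 are highest in all 9 re-watered samples, AIRP2 is highest in all 9 drought samples, and SDIR1, RGLG1, RGLG2, DRIP1 and DRIP2 stay between 87.4 and 410.2 throughout.

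The 9 genes fell into an RDUF pair that was high after re-watering, an AIRP pair that was low after re-watering, and 5 genes that changed little. Of the variation (sum of squares of log2 values over the 27 samples), treatment held 89.8% in RDUF1, 83.3% in RDUF2 and 70.2% in AIRP1, against a median of 54.2% over all tested genes, and replicates held 2.46% in AIRP2, 4.44% in RDUF1, 8.91% in RDUF2 and 12.7% in AIRP1, against a median of 18.9%. Genotype held 10.7% in AIRP1 and 15.8% in DRIP2, and at most 8.2% in the other members, against a median of 4.89%. From the lowest to the highest group mean, AIRP2 spanned 25.5-fold, RDUF1 24.0-fold, RDUF2 9.34-fold and AIRP1 5.4-fold. The span was 1.45-fold in SDIR1, 1.6-fold in DRIP2, 1.65-fold in RGLG2, 1.72-fold in RGLG1 and 1.77-fold in DRIP1.

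The first question was how the ligase genes stood at the end of the drought relative to well-watered leaves of the same genotype. AIRP2, a cytosolic ligase that promotes ABA responses, rose in all 3 genotypes, and it was the only member that met the rule for a call in each of them. A gene was called where limma's adjusted p was under 0.05 and the log2 fold change was above 1 or below -1. By this rule drought changed 3 of 9 members in GC::AtTOR, where 25.0% of all tested genes were called, 1 of 9 in 35S::AtTOR, where 7.76% were called, and 1 of 9 in WT, where 20.4% were called. AIRP2 had 1531, 2136 and 2849 normalized counts in GC::AtTOR drought leaves, against 424, 504 and 460 in well-watered ones. It had 1167, 916 and 1667 in 35S::AtTOR drought leaves, against 494, 605 and 681 in well-watered ones, and 1444, 1750 and 2042 in WT drought leaves, against 510, 450 and 523 in well-watered ones. No drought sample overlapped a well-watered one in any genotype. The log2 fold change was 2.19 ± 0.24 (SE) in GC::AtTOR, 1.04 ± 0.24 in 35S::AtTOR and 1.81 ± 0.24 in WT (limma, Benjamini-Hochberg adjusted p = 2.07e-07, 0.00364 and 3.32e-06). The 35S::AtTOR value lies at the edge of the rule: it was 0.81 without drought replicate 3 and 0.92 without well-watered replicate 1. The difference between the responses of 35S::AtTOR and WT was -0.76 ± 0.34 (adjusted p = 0.182), so a smaller response in 35S::AtTOR was not established.

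RDUF1 and RDUF2, a pair of ligases known for ABA-dependent drought tolerance, were lower in drought leaves of GC::AtTOR. RDUF1 had 292, 148 and 242 normalized counts in GC::AtTOR drought leaves, against 1899, 1930 and 678 in well-watered ones. RDUF2 had 898, 300 and 450, against 1979, 1905 and 978. Both well-watered groups stood wholly above the drought groups, and in both genes well-watered replicate 3 was far below the other two. The log2 fold changes were -2.63 ± 0.36 for RDUF1 (limma, adjusted p = 2.75e-06) and -1.64 ± 0.38 for RDUF2 (adjusted p = 0.000866). In 35S::AtTOR, RDUF1 had 194, 320 and 247 in drought leaves, against 453, 508 and 313 in well-watered ones (log2 fold change -0.74 ± 0.36, adjusted p = 0.129). In WT it had 526, 411 and 172 in drought leaves, against 503, 654 and 591 in well-watered ones (-0.79 ± 0.36, adjusted p = 0.0683), and without WT drought replicate 1 the value was -1.12 (adjusted p = 0.0182). RDUF2 in WT was scattered in drought, at 1407, 995 and 363, against 677, 662 and 661 in well-watered leaves (0.26 ± 0.38, adjusted p = 0.588).

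Other lists were lower in the same drought leaves. Of the 17 touch and rapid stress genes tested, drought lowered 15 in GC::AtTOR, 5 in 35S::AtTOR and 5 in WT and raised 0 in each, with medians of -2.99, -0.75 and -0.22 on the log2 scale. The summed level of 6 guard cell markers was 169 to 227 in drought against 574 to 815 in well-watered GC::AtTOR, 243 to 314 against 596 to 748 in 35S::AtTOR, and 132 to 160 against 471 to 640 in WT. That of 4 leaf mesophyll markers was 57470 to 136908 against 225463 to 324708 in GC::AtTOR, 125538 to 155061 against 167700 to 205217 in 35S::AtTOR, and 95542 to 119792 against 302731 to 388101 in WT. Across the 27 samples RDUF1 had a Pearson r of 0.83 with the guard cell gene FAMA and 0.77 with MYB60, as a description. These genes are only a part of the 6 guard cell markers. The summed level of all 6 after re-watering was 563 to 945 in GC::AtTOR, 529 to 596 in 35S::AtTOR and 564 to 713 in WT. Each of these ranges met or overlapped that of well-watered leaves, while RDUF1 was higher in every re-watered sample than in any well-watered one. The part of these lists in the RDUF1 and RDUF2 values was not tested.

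Whether the drought response of GC::AtTOR differed from that of WT was tested directly, and none of the 9 members passed in limma, where 0.245% of all genes were called. The differences were -1.83 ± 0.51 for RDUF1 (adjusted p = 0.12) and -1.90 ± 0.53 for RDUF2 (adjusted p = 0.129), which are the 2 members at an unadjusted p under 0.05. Of the 18785 tested genes, 2349 were under that unadjusted value in limma. edgeR called 0 of 9 and DESeq2 called both, with adjusted p of 0.00393 for RDUF1 and 0.00937 for RDUF2. limma also called both without WT drought replicate 3 (-2.31 for RDUF1 and -2.47 for RDUF2), without GC::AtTOR drought replicate 1 (-2.04 and -2.33) or without GC::AtTOR well-watered replicate 3 (-2.33 and -2.23). For the drought response of 35S::AtTOR against that of WT, limma, edgeR and DESeq2 each called 0 of 9 members (3.45% of all genes in limma), with 2 at an unadjusted p under 0.05. In limma 4340 of the 18785 tested genes were under that value in this comparison.

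Among the other members, DRIP1 was higher in drought by less than the fold required, with 187 ± 23.1 normalized counts in GC::AtTOR drought leaves against 127 ± 3.5 in well-watered ones and 167 ± 18.1 in WT drought leaves against 115 ± 10.6 in well-watered ones (SD, n = 3 each). Its log2 fold changes were 0.54 in GC::AtTOR, 0.32 in 35S::AtTOR and 0.54 in WT (SE 0.11, limma adjusted p = 0.000326, 0.0422 and 0.000445), and drought and well-watered samples did not overlap in any genotype. RGLG1, a plasma membrane ligase, stood at 222 ± 42.9 in GC::AtTOR drought leaves against 129 ± 37.5 in well-watered ones (0.81 ± 0.19, adjusted p = 0.00082) and 206 ± 17.5 in WT drought leaves against 145 ± 25.2 in well-watered ones (0.51 ± 0.19, adjusted p = 0.0243). In 35S::AtTOR it stood at 187 ± 18.7 in drought leaves against 177 ± 0.652 in well-watered ones, where the samples overlapped (0.07 ± 0.19, adjusted p = 0.82). For SDIR1, an endoplasmic reticulum ligase, the 95% intervals of the log2 fold change ran from -0.18 to 0.36 in GC::AtTOR, -0.24 to 0.30 in 35S::AtTOR and -0.23 to 0.31 in WT, so changes as large as the rule requires lay outside all of them.

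**Figure D2:**
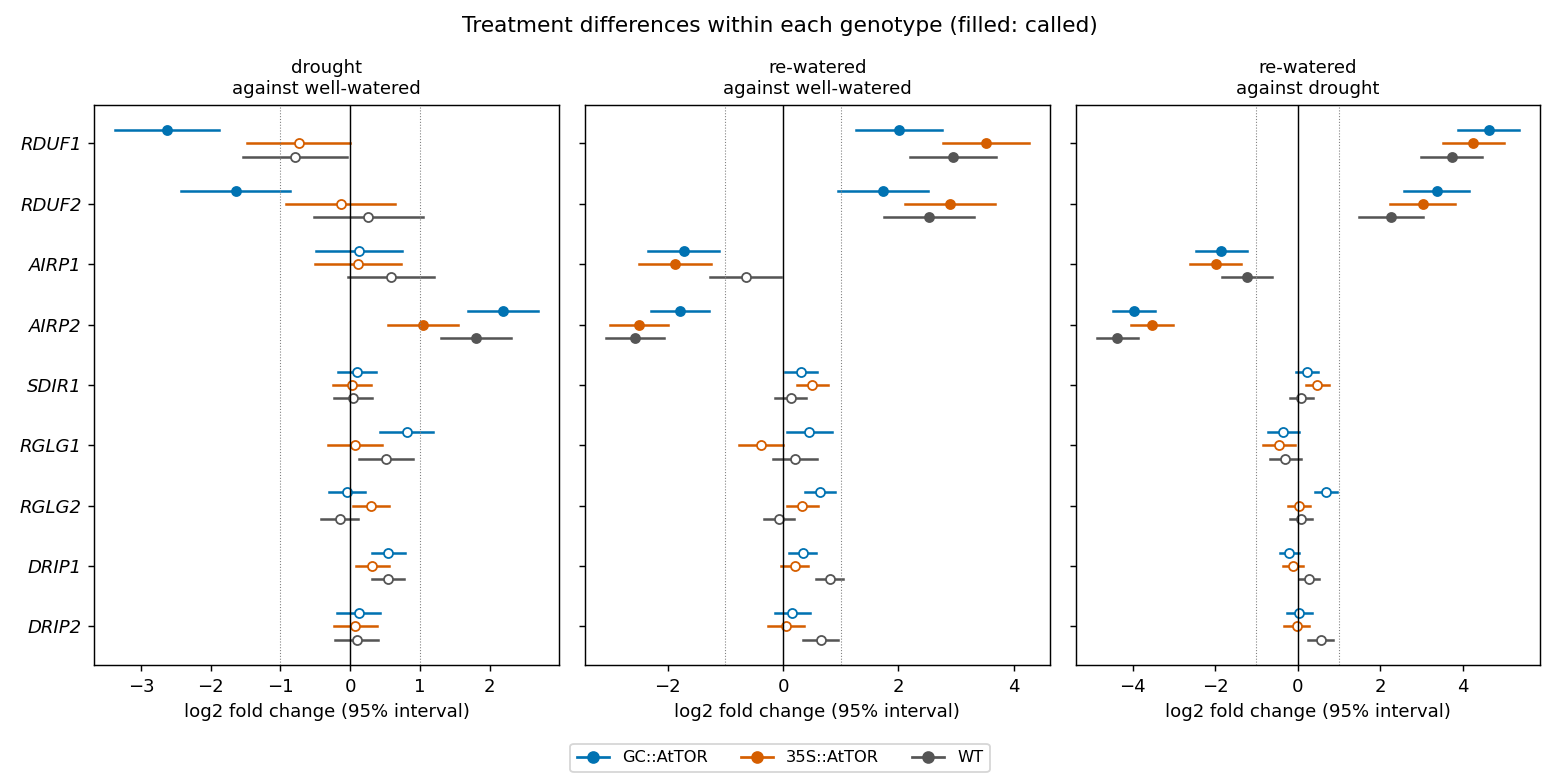
Log2 fold changes with 95% intervals for the 9 genes (rows) in the 3 treatment comparisons (panels), with 1 color for each genotype; filled points met the rule for a call and dotted lines mark -1 and 1. AIRP2 lies right of 1 in drought and left of -1 after re-watering in every genotype, while RDUF1 and RDUF2 lie right of 1 in every re-watered comparison.

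The next question was how the genes stood 4 days after watering was resumed. RDUF1 and RDUF2 reached their highest levels and AIRP2 its lowest, in all 3 genotypes. Against well-watered leaves, re-watering changed 4 of 9 members in GC::AtTOR, where 14.6% of all tested genes were called, 4 of 9 in 35S::AtTOR, where 19.6% were called, and 3 of 9 in WT, where 30.2% were called. RDUF1 had 5898, 5338 and 5159 normalized counts in re-watered GC::AtTOR, against 1899, 1930 and 678 in well-watered leaves, a 4.02-fold rise. It had 5121, 4960 and 4249 in re-watered 35S::AtTOR, against 453, 508 and 313 in well-watered leaves, an 11.4-fold rise, and 4534, 4155 and 4738 in re-watered WT, against 503, 654 and 591, a 7.71-fold rise. The lowest re-watered sample of any genotype thus stood above the highest well-watered sample of any genotype. The log2 fold changes were 2.01, 3.51 and 2.95 for GC::AtTOR, 35S::AtTOR and WT (SE 0.36, limma adjusted p = 0.000104, 5.72e-08 and 3.33e-07).

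RDUF2 followed its paralog. It had 4872, 5417 and 5098 normalized counts in re-watered GC::AtTOR, 5365, 5162 and 4314 in re-watered 35S::AtTOR, and 3953, 3303 and 4331 in re-watered WT. Against well-watered leaves these were rises of 1.73, 2.89 and 2.52 on the log2 scale in that order of genotypes (SE 0.38, limma adjusted p = 0.000811, 1.87e-06 and 5.71e-06). No re-watered sample overlapped a well-watered or a drought sample. In the order of its 9 group means, only the step between re-watered WT and well-watered GC::AtTOR separated neighbors whose samples did not overlap. For RDUF1, 3 of the 8 steps did so: re-watered GC::AtTOR from re-watered 35S::AtTOR, re-watered WT from well-watered GC::AtTOR, and that group from well-watered WT.

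AIRP2 reached its lowest levels in re-watered plants. It had 110, 149 and 145 normalized counts in re-watered GC::AtTOR, 86.8, 93.6 and 138 in re-watered 35S::AtTOR, and 104, 57.6 and 94.4 in re-watered WT. No re-watered sample overlapped a well-watered one, and the log2 fold changes against well-watered leaves were -1.78, -2.49 and -2.56 (SE 0.24, limma adjusted p = 4.15e-06, 2.94e-08 and 8.19e-09). AIRP1, a further ligase that promotes ABA-dependent drought tolerance, had 22.4, 46.6 and 45.2 in re-watered GC::AtTOR, against 108, 133 and 125 in well-watered leaves (-1.72 ± 0.30, adjusted p = 7.48e-05). It had 33.1, 57.5 and 67.5 in re-watered 35S::AtTOR, against 140, 216 and 218 in well-watered leaves (-1.87 ± 0.30, adjusted p = 2.16e-05). In WT it had 53.4, 49.4 and 50.2 in re-watered leaves, against 89.7, 50.2 and 115 in well-watered ones, where the samples overlapped and the value did not pass (-0.65 ± 0.30, adjusted p = 0.063).

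Against drought leaves, the same 4 members were called in each genotype after re-watering, RDUF1 and RDUF2 higher and AIRP1 and AIRP2 lower, that is 4 of 9 where 28.2% of all tested genes were called in GC::AtTOR, 21.2% in 35S::AtTOR and 28.0% in WT. RDUF1 was 24.8-fold higher in re-watered than in drought leaves of GC::AtTOR, 19.1-fold higher in 35S::AtTOR and 13.3-fold higher in WT. The log2 fold changes of AIRP2 in those genotypes were -3.97, -3.53 and -4.37, and those of AIRP1 were -1.85, -1.99 and -1.23 (limma adjusted p = 1.61e-05, 9.84e-06 and 0.00117 for AIRP1). These comparisons and those with well-watered leaves share the re-watered samples.

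Other genes moved with the re-watered samples, and their part in the results was not tested. Of 7 evening clock genes, 5 were lower in re-watered than in well-watered GC::AtTOR, 6 in 35S::AtTOR and 5 in WT, with median log2 fold changes of -2.02, -2.12 and -2.10, and morning clock genes had medians of -2.22, -2.02 and -1.51. The summed level of 4 leaf mesophyll markers was 160198 to 203146 in re-watered against 225463 to 324708 in well-watered GC::AtTOR, 88701 to 130949 against 167700 to 205217 in 35S::AtTOR, and 58851 to 67055 against 302731 to 388101 in WT. Of 17 tested genes that respond fast to touch and other stimuli, such as TCH4 and ZAT12, re-watering raised 5 and lowered 0 in GC::AtTOR, raised 13 and lowered 1 in 35S::AtTOR, and raised 14 and lowered 0 in WT. The list medians were 1.02, 1.71 and 2.62 on the log2 scale, against medians over all tested genes of 0.0218, -0.00194 and 0.0249.

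Differences from WT below the fold required were seen after re-watering in 5 members, of both kinds of regulator. Such differences were common among all genes. For GC::AtTOR, 4 of 9 members and 9523 of 18785 tested genes stood at an unadjusted limma p under 0.05. For 35S::AtTOR these were 3 of 9 members and 9022 genes. AIRP2 was higher in re-watered GC::AtTOR than in re-watered WT with no overlap (0.68 ± 0.24 on the log2 scale, limma adjusted p = 0.0268), and SDIR1 was higher in re-watered 35S::AtTOR with overlap (0.36 ± 0.13, adjusted p = 0.0334). DRIP2 had 132, 139 and 160 normalized counts at the lowest, median and highest sample of re-watered GC::AtTOR, 120, 131 and 152 in re-watered 35S::AtTOR, and 192, 210 and 214 in re-watered WT. Re-watered WT thus stood wholly above both lines, with log2 differences of -0.52 ± 0.15 for GC::AtTOR (limma adjusted p = 0.0071) and -0.62 ± 0.15 for 35S::AtTOR (adjusted p = 0.00225). DRIP1 had a similar order, at 162 ± 16.4 in re-watered GC::AtTOR, 154 ± 1.59 in 35S::AtTOR and 202 ± 24.2 in WT (SD, n = 3 each), with -0.32 ± 0.11 and -0.38 ± 0.11 against WT (adjusted p = 0.0267 and 0.00986). For DRIP1 the GC::AtTOR samples (highest 179.8) overlapped those of WT (lowest 176.0), and the 35S::AtTOR samples (highest 155.7) did not. RGLG2 stood at 354 ± 50.7 in re-watered GC::AtTOR, 273 ± 48.7 in 35S::AtTOR and 229 ± 15.6 in WT, and the GC::AtTOR samples lay above those of both other genotypes (0.62 ± 0.13 against WT, adjusted p = 0.000484). RGLG1 did not pass in either line (0.05 ± 0.19 for GC::AtTOR and -0.29 ± 0.19 for 35S::AtTOR, adjusted p = 0.854 and 0.226).

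**Figure D3:**
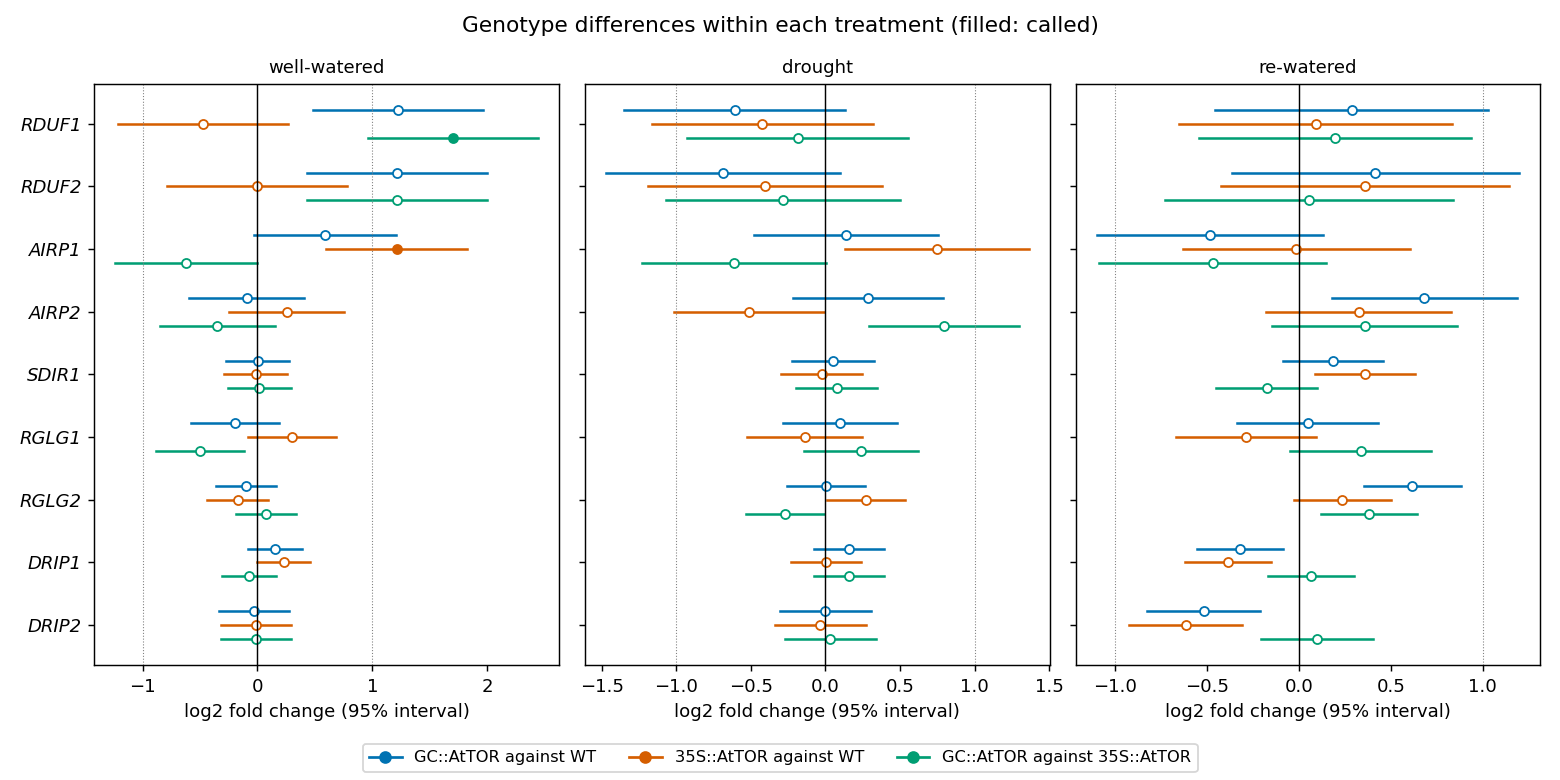
Log2 differences with 95% intervals between genotypes for the 9 genes (rows) within each treatment (panels, each with its own x range), with 1 color for each pair of genotypes; filled points met the rule for a call and dotted lines mark -1 and 1. Only RDUF1 for GC::AtTOR against 35S::AtTOR and AIRP1 for 35S::AtTOR against WT, both in well-watered leaves, are filled.

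The last question was how each AtTOR construct differed from WT under the same treatment. Both constructs were compared with the same WT samples. For GC::AtTOR, limma called 0 of 9 members in well-watered leaves (1.07% of all tested genes called, 2 members at an unadjusted p under 0.05), 0 in drought (0.0160% called, 0 members) and 0 after re-watering (14.6% called, 4 members). Over all 18785 tested genes, the counts at an unadjusted p under 0.05 were 3035, 938 and 9523 in that order. edgeR called 1, 0 and 0 and DESeq2 called 2, 0 and 0 in those treatments. For 35S::AtTOR, limma called 1 of 9 in well-watered leaves (2.75% of all called), 0 in drought (1.55% called, 3 members at an unadjusted p under 0.05) and 0 after re-watering (10.0% called, 3 members), and edgeR and DESeq2 gave the same counts. Between the lines, GC::AtTOR against 35S::AtTOR, limma called 1 of 9 in well-watered leaves (2.49% called), 0 in drought (6.02% called, 2 members at an unadjusted p under 0.05) and 0 after re-watering (4.62% called, 1 member), with 2, 0 and 0 by both edgeR and DESeq2. The counts of all tested genes at an unadjusted limma p under 0.05 were 5524 in drought and 6092 after re-watering. For 35S::AtTOR against WT they were 3193 in drought and 9022 after re-watering.

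RDUF1 and RDUF2 were high in 2 of the 3 well-watered GC::AtTOR samples. RDUF1 had 1899, 1930 and 678 normalized counts there, 453, 508 and 313 in 35S::AtTOR and 503, 654 and 591 in WT, so that every GC::AtTOR sample stood above every WT sample, replicate 3 by little. Against 35S::AtTOR the log2 difference was 1.70 ± 0.36 (limma, adjusted p = 0.00639), and leaving out replicate 2 of well-watered GC::AtTOR gave 1.45 (adjusted p = 0.0504). Against WT it was 1.23 ± 0.36 for RDUF1 (adjusted p = 0.0887) and 1.21 ± 0.38 for RDUF2 (adjusted p = 0.109). Neither passed in limma, edgeR called RDUF1 (adjusted p = 0.0377), and DESeq2 called both (0.00473 for RDUF1 and 0.0187 for RDUF2). The paper, which used DESeq2, reports both as upregulated in this comparison, so the limma fit did not reproduce that call. Leaving out replicate 3 of well-watered GC::AtTOR gave 1.72 for RDUF1 (adjusted p = 0.00306) and 1.54 for RDUF2 (adjusted p = 0.0205). RDUF2 against 35S::AtTOR stood just short of a call at 1.22 ± 0.38 (adjusted p = 0.0512).

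The touch and rapid stress genes were also highest in replicates 1 and 2 of well-watered GC::AtTOR. In 35S::AtTOR, replicate 3 was lowest in both this list and RDUF1, but their levels relative to WT differed. Relative to the mean of well-watered WT, the list's median log2 level was 2.17, 2.05 and 0.70 in GC::AtTOR replicates 1, 2 and 3, 0.93, 0.93 and -0.06 in 35S::AtTOR, and -0.12, 0.09 and -0.03 in WT. Replicates 1 and 2 of 35S::AtTOR thus stood above WT in this list, while RDUF1 in them (453 and 508) did not. RDUF2 had 754.5, 744.0 and 520.1 in 35S::AtTOR replicates 1, 2 and 3, against 676.9, 662.1 and 660.7 in WT. In RDUF2, replicates 1 and 2 of 35S::AtTOR thus stood above every WT sample and replicate 3 below. The list's summed level was 28914 to 72128 in GC::AtTOR, 19627 to 40568 in 35S::AtTOR and 15842 to 19028 in WT. In the limma comparison of GC::AtTOR with WT, 1 of its 17 tested genes was called higher and 0 lower (TCH4, a cell wall enzyme gene, 2.00 ± 0.49, adjusted p = 0.0393), with a median log2 difference of 1.62. The part of these genes in the RDUF1 and RDUF2 values was not tested.

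**Figure D4:**
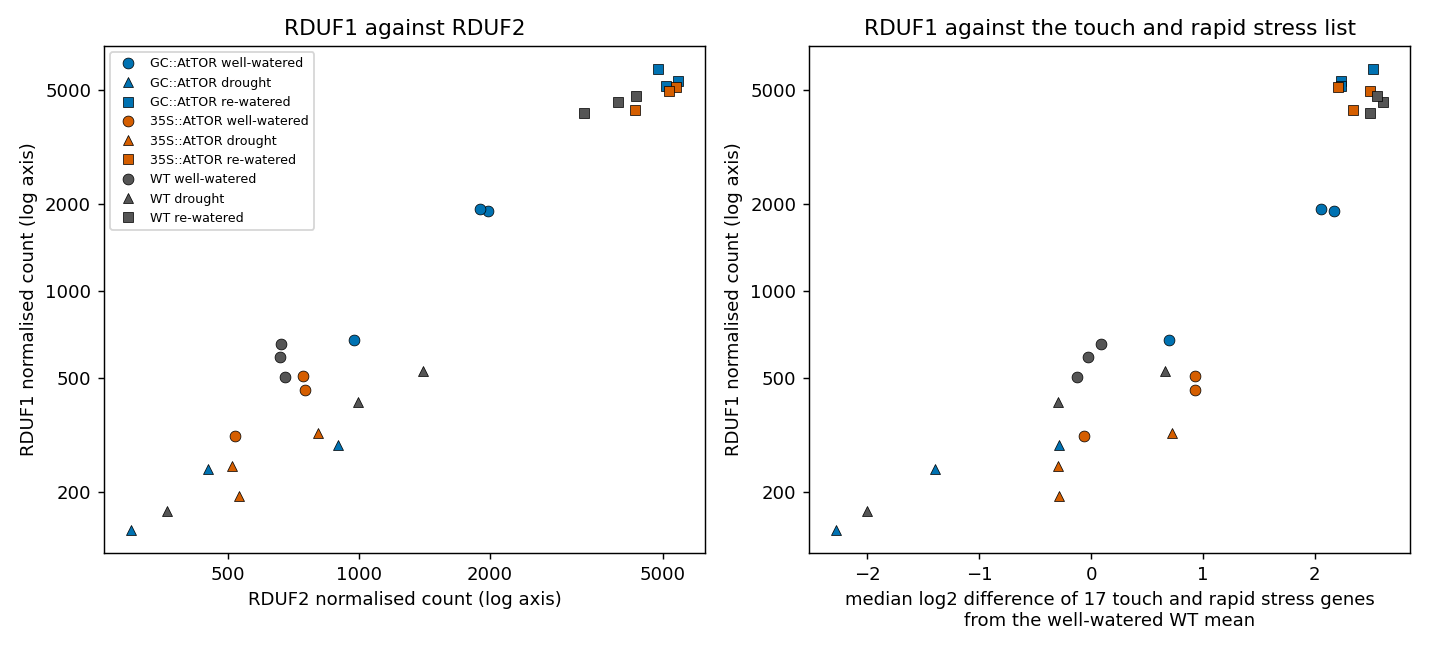
RDUF1 normalized counts (log axis) against RDUF2 normalized counts (log axis, left) and against the median log2 level of 17 touch and rapid stress genes relative to well-watered WT (right), 1 point for each of the 27 samples, with color for genotype and shape for treatment. Well-watered GC::AtTOR replicates 1 and 2 (RDUF1 at 1899 and 1930) lie between the re-watered samples and the rest in both plots.

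AIRP1 was the member that stood apart in 35S::AtTOR. It had 140, 216 and 218 normalized counts in well-watered 35S::AtTOR, against 89.7, 50.2 and 115 in WT, with no overlap (1.21 ± 0.30, limma adjusted p = 0.0136). The call was lost without WT well-watered replicate 2 (0.88, adjusted p = 0.11), without 35S::AtTOR well-watered replicate 2 (adjusted p = 0.0674) or replicate 3 (adjusted p = 0.0619), and with the compared groups alone (adjusted p = 0.05). In drought AIRP1 had 237, 164 and 216 in 35S::AtTOR, against 99.2, 140 and 127 in WT, again with no overlap (0.75 ± 0.30, adjusted p = 0.19). After re-watering the means were 52.7 ± 17.7 in 35S::AtTOR and 51.0 ± 2.11 in WT (SD, n = 3 each), and 35S::AtTOR replicate 1, the shallow library, had 33.1, which is 8 reads.

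The difference of AIRP1 between re-watered and well-watered leaves was more negative in 35S::AtTOR than in WT, by -1.23 ± 0.42 on the log2 scale (limma, adjusted p = 0.0268), the 1 member called of 9 where 15.5% of all tested genes were called. DESeq2 also called 1 member and edgeR 0. This difference rests on the same well-watered samples as the one above, and it was -0.93 (adjusted p = 0.0916) without the shallow re-watered library. In GC::AtTOR the difference from the WT response was -1.07 ± 0.42 (adjusted p = 0.0521), and 0 of 9 members were called where 16.7% of all tested genes were, with 5 members at an unadjusted p under 0.05 and 0 called by edgeR or DESeq2. At that unadjusted limma p stood 8295 of the 18785 tested genes. RGLG2 and DRIP1 passed the adjusted p there without the fold required, at 0.72 ± 0.18 (adjusted p = 0.00376) and -0.47 ± 0.16 (adjusted p = 0.0257).

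Across the 27 samples, RDUF1 and RDUF2 had a Pearson r of 0.97 on the log2 scale, and 0.91 for their deviations from the group means, so they also moved together among replicates. All such values share the same libraries and treatments and are given as a description. Among the 14562 genes whose mean reached 100 in any group, RDUF2 had rank 14 in likeness to RDUF1. The 5 genes most like RDUF1 were AT3G10930 (r = 0.993), RABA4C, a Rab GTPase (0.989), BAP1, a membrane protein that restrains cell death (0.987), AT3G02840 (0.987) and AT1G05575 (0.984). Those most like RDUF2 were AT4G29780 (0.988), the zinc finger gene ZAT12 (0.986), AT1G23710 (0.983), the exocyst subunit gene EXO70B1 (0.981) and AT3G10930 (0.981). For AIRP1 they were AT3G10130 (0.906), the transcription factor gene STOP1 (0.893), AT3G62950 (0.887), PIRL3 (0.887) and AT1G66060 (0.885). AIRP2 ran opposite to RDUF1 (r = -0.94), and DRIP1 with DRIP2 had 0.60.

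Of 20 other ligase genes known from drought or ABA responses, 19 were tested. The paired U-box ligase genes PUB22 and PUB23 followed the RDUF pair. PUB23 averaged 3464 in re-watered against 359 in well-watered GC::AtTOR, 3023 against 104 in 35S::AtTOR and 4705 against 54.2 in WT (3.50, 4.95 and 6.42 on the log2 scale, limma adjusted p at most 4.8e-05), and PUB22 rose by 3.43, 4.20 and 6.20. Both stood higher in well-watered GC::AtTOR than in well-watered WT, by 2.48 for PUB23 and 1.86 for PUB22 (adjusted p = 0.0324 and 0.0319). XERICO, a RING gene that raises ABA levels, followed AIRP2, with 2853 in GC::AtTOR drought leaves against 418 in well-watered ones and 2136 in WT drought leaves against 587. Across this list, drought leaves of GC::AtTOR had 5 genes raised and 6 lowered, those of 35S::AtTOR had 2 and 2, and those of WT had 4 and 3, with medians of -0.07, -0.13 and 0.35 against medians over all tested genes of -0.03, -0.01 and -0.03. Against well-watered leaves, re-watered GC::AtTOR had 4 raised and 2 lowered, re-watered 35S::AtTOR had 5 and 3, and re-watered WT had 6 and 1.

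Genes for proteins that these ligases are known to target were followed as a list of 5. DREB2A rose in re-watered 35S::AtTOR (1722 against 438 in well-watered leaves, 1.98 ± 0.27 on the log2 scale) and in re-watered WT (2921 against 354, 3.04 ± 0.27), and in well-watered leaves it was higher in GC::AtTOR than in WT (1138 against 354, 1.54 ± 0.27, limma adjusted p = 0.00524). Its re-watered response was lower in GC::AtTOR than in WT by -2.32 ± 0.39 (adjusted p = 0.000107). PP2CA rose in drought, with 6428 against 2017 in GC::AtTOR and 5423 against 2479 in WT, and stood at 938 in re-watered WT. Drought raised 2 of the 5 in GC::AtTOR, 2 in 35S::AtTOR and 3 in WT and lowered 0 in each.

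ABA-induced and dehydration genes, the setting in which AIRP2 and RDUF1 are usually described, were raised in drought in 10 of 14 cases in GC::AtTOR, 6 in 35S::AtTOR and 8 in WT, with 1, 0 and 1 lowered. RD29B averaged 16609 in WT drought leaves against 145 in well-watered ones, and RAB18 55072 against 620. After re-watering 9, 9 and 11 of the 14 were lower than in well-watered leaves of GC::AtTOR, 35S::AtTOR and WT, and 0, 0 and 1 higher. AIRP2 thus had the direction of this list's median in both comparisons and RDUF1 did not. Of 14 ubiquitin, E1 and E2 genes, drought raised 0 in any genotype and lowered 1 in each construct and 0 in WT, and of 8 proteasome subunit genes, 0 were called in drought in any genotype. Re-watered GC::AtTOR had 1 of the 14 raised and 0 lowered, re-watered 35S::AtTOR had 1 and 2, and re-watered WT had 0 and 2. The proteasome list had medians of -0.64, -0.52 and -0.28 on the log2 scale in re-watered against well-watered leaves of the same genotypes. In re-watered leaves UBQ3, a polyubiquitin gene, averaged 2558 in WT against 12745 in well-watered leaves, a log2 fold change of -2.36, and RPT2A was the 1 proteasome gene lowered, in GC::AtTOR (954 against 2240).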

How the data were processed

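Leaf RNA from 27 samples was sequenced on an Illumina NovaSeq instrument after TruSeq library preparation. Per the paper and the labels, the authors used CASAVA, Trimmomatic, STAR against TAIR10, Salmon and DESeq2 (versions and strand setting not given in the sources used here). The deposited signal values are gene counts that the authors divided by 1 DESeq2 size factor per sample, which removes depth but not a change in the makeup of the RNA. Dividing each sample by its smallest step gave whole reads in all 27 samples (tolerance 0.1), 2739872 to 16707106 per sample. One sample had far fewer reads than the rest, so its low values are the least precise.

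Genes whose mean reached 10 in any group (18785 of 34218) were fitted with limma 3.58.1 (R 4.3.3) on log2(normalized count + 1), in 1 model of the 9 groups with a trend in the prior variance, and p-values were adjusted by Benjamini-Hochberg over all of them in each of 22 comparisons. Fold changes on this scale understate low genes. Calls needed both an adjusted p below 0.05 and a log2 change of more than 1 in either direction. Alternatives were other pseudocounts and filters, robust fitting, blocks, equal totals, edgeR 4.0.16 and DESeq2 1.42.0 on the recovered reads, the compared groups alone, no floor on the fold change, and leaving out each sample. The code was tested on simulated data. Sequences came from RefSeq TAIR10.1, whose coordinates were used for gene positions and promoters only.

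The members and lists were chosen with earlier results of these data known. Beside the members and TOR, a list gene was named where it was called in a comparison, at most the 2 highest and 2 lowest, and for RDUF1, RDUF2 and AIRP1 the 5 genes most alike over the 27 samples were named.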

Additional observations from a re-analysis of the deposited data

Results flagged for a closer look

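The response of AIRP1 to re-watering differed between 35S::AtTOR and WT by -1.226 on the log2 scale (limma, adjusted p = 0.0268). AIRP1 averaged 52.7 ± 17.7 normalized counts in re-watered against 191 ± 45.0 in well-watered 35S::AtTOR, and 51.0 ± 2.11 in re-watered against 84.9 ± 32.5 in well-watered WT (SD, n = 3 each). The adjusted p was 0.0507 with edgeR and 0.0916 without re-watered 35S::AtTOR replicate 1, the sample with 2739872 reads.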

How the results depend on the processing

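Over 22 comparisons of 9 members under all alternatives, 3706 of 3780 values kept their side of the threshold, 13 lost a call, 61 gained one (29 of them by dropping the floor on the fold change) and 0 called values reversed. The sign changed in 142 values that were not called, all at most 0.405 in size on the log2 scale in the report's fit. For GC::AtTOR against 35S::AtTOR in well-watered leaves, members called changed to 2 (1 in the report) with 5 added before the logarithm, the replicate block, the library number block, equal totals, edgeR or DESeq2, and to 0 with the compared groups alone. The re-watered response of GC::AtTOR minus WT had 1 member called (0 in the report) with a mean of at least 50, the replicate block or equal totals. For GC::AtTOR against WT in well-watered leaves edgeR called 1 and DESeq2 2 (0 in the report), for the drought response of GC::AtTOR minus WT DESeq2 called 2 (0), for the re-watered response of 35S::AtTOR minus WT edgeR called 0 (1), and for 35S::AtTOR against WT in well-watered leaves the compared groups alone gave 0 (1). The cause of these changes was not tested. With no floor on the fold change, drought against well-watered leaves had 5 members in GC::AtTOR, 2 in 35S::AtTOR and 3 in WT, and re-watered against well-watered WT had 5. In re-watered leaves that setting gave 4 for GC::AtTOR against WT, 3 for 35S::AtTOR against WT and 1 for GC::AtTOR against 35S::AtTOR, in drought it gave 1 for GC::AtTOR against 35S::AtTOR, and the re-watered responses had 2 (GC::AtTOR minus WT) and 3 (35S::AtTOR minus WT).

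Leaving out 1 sample at a time gave 1 to 2 members for drought against well-watered WT and 0 to 1 for the same in 35S::AtTOR. It gave 0 to 2 for GC::AtTOR against WT and for GC::AtTOR against 35S::AtTOR in well-watered leaves, 0 to 1 for 35S::AtTOR against WT there, and 0 to 1 for GC::AtTOR against 35S::AtTOR in drought. It gave 0 to 2 for the drought response of GC::AtTOR minus WT and 0 to 1 for each re-watered response. AIRP1 in the re-watered response of GC::AtTOR was called without well-watered WT replicate 3 (adjusted p = 0.0227), re-watered GC::AtTOR replicate 2 (0.0349) or replicate 3 (0.0408). AIRP1 in that of 35S::AtTOR was lost without well-watered WT replicate 2 (0.0954) or well-watered 35S::AtTOR replicate 2 (0.0652) or 3 (0.0633), and AIRP2 for GC::AtTOR against 35S::AtTOR in drought was called without drought 35S::AtTOR replicate 3 or GC::AtTOR replicate 1. RDUF1 in the re-watered response of GC::AtTOR was called without well-watered GC::AtTOR replicate 3 (-1.44, adjusted p = 0.0149). Samples with the same replicate number did not deviate together in all 3 replicates: 0 of 36 pairs of groups had all 3 correlations over 0.1, so the numbers were not taken as pairs. Single correlations were higher, as in WT drought with GC::AtTOR drought (0.503, -0.179 and 0.404). Library numbers, which differ from replicate numbers in 12 samples, were not checked in this way and entered only as a block. With equal totals the median gene moved by 0.27, 0.09 and 0.28 on the log2 scale for drought and by 0.22, 0.22 and 0.33 for re-watered leaves of GC::AtTOR, 35S::AtTOR and WT, each against well-watered leaves, and DRIP1 in re-watered WT (1.13) and RGLG1 in drought GC::AtTOR (1.08) then passed the rule.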
